A study of Homo sapiens with 4 samples.

Results

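A group of 10 genes of the NF-κB pathway were followed across the 4 conditions of the study. They are 4 subunits of the transcription factor (NFKB1, NFKB2, RELA and RELB), 3 inhibitors (NFKBIA, NFKBIE and TNFAIP3) and 3 further target genes (BIRC3, CXCL8 and IER3). The genes were chosen by name, for their place in the pathway but with earlier results of these data known, and make up 10 of the 19801 genes measured. All 10 were found, and all 10 reached 1 RPKM in at least 1 library, TNFAIP3 in those with AIL alone. RPKM is the number of reads on a gene, scaled by gene length and library size. The cells were LNCaP, an androgen-sensitive human prostate cancer line. They were transfected for 24 h with empty vector or with AR1-651, the study's truncated receptor construct without a ligand-binding domain, and were then kept for the next 12 h with or without AIL (ailanthone, a natural compound), at a concentration that the sample labels do not give. The cells shared this line, the transfection and medium with serum, and the vector was introduced transiently. RNA-seq was done on 1 library per condition (empty vector without and with AIL, then AR1-651 without and with AIL, an order kept below).

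NF-κB is a family of dimeric transcription factors that IκB proteins hold in the cytoplasm. Cytokine receptors and stress signals activate the IκB kinase complex, IκB is degraded, and the freed dimers enter the nucleus and bind κB sites. Many of the genes they activate encode the pathway's own subunits and inhibitors, so that mRNA of NFKBIA or TNFAIP3 is commonly read as a feedback signal, and in prostate cancer cells the pathway is known for survival and inflammatory gene expression.

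The start-proximal promoters of the members are shown first, since several carry the κB letters to which the RNA values below can be set. A RefSeq promoter table (GRCh38.p14, windows of 300 bases beginning 250 bases before each start) had 11 windows for 7 members. RELB, NFKBIE and IER3 had no entry in it. The 10-letter κB consensus was searched on both strands, together with a 9-letter word, GGAATTTCC or its complement GGAAATTCC, which was chosen after the windows had been read and overlaps the consensus match in NFKB1 and NFKBIA. Each stretch below is printed 5′ to 3′ on the gene's strand and ends at the base before the annotated start. Capitals mark the matches. NFKBIA (chr14:35404750-35404849, minus strand) and NFKB1 (chr4:102501259-102501358, plus strand) hold 1 match each, 81 and 49 bases before the start. NFKB2 (chr10:102394458-102394577, plus strand, start 2 of 3) has overlapping matches from 107 bases before the start and another at 78. TNFAIP3 (chr6:137867159-137867258, plus strand) has a pair of close matches and BIRC3 (chr11:102317264-102317483, plus strand) a pair of distant ones. CXCL8 (chr4:73740449-73740568, plus strand) has the 9-letter word and no consensus match.
NFKBIA: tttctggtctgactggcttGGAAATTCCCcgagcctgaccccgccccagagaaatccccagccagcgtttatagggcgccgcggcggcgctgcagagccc
NFKB1: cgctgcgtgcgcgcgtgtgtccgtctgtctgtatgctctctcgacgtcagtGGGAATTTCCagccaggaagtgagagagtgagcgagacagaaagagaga
NFKB2: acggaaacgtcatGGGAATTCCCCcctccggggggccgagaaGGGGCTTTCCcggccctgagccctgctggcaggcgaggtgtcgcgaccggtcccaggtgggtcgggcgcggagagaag
TNFAIP3: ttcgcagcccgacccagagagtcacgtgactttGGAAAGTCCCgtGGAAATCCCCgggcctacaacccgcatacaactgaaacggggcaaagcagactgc
BIRC3: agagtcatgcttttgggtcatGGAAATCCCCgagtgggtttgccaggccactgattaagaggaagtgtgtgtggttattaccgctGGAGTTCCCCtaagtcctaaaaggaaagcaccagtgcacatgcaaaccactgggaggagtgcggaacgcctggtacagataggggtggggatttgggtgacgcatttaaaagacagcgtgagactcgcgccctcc
CXCL8: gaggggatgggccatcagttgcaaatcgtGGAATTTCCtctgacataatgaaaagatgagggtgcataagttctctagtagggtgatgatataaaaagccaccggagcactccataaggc

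The consensus was present in 6 windows of 5 members (NFKB1, NFKB2, NFKBIA, TNFAIP3 and BIRC3), and in 11.3% of 35116 promoter windows in the table. Since the members were chosen for their place in the pathway, this share cannot show an enrichment in them. The 9-letter word was present in 3 members (NFKB1, NFKBIA and CXCL8). It is the last 9 letters of the consensus match in NFKB1, so its presence there was fixed in advance. In NFKBIA it lies within the consensus match. Of all windows in the table, 0.461% hold the word, a share that cannot show an enrichment in the members. Neither the consensus nor the word was found in either window of RELA. These are letter matches in short windows. Binding of a factor was not measured.

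**Figure D1:**
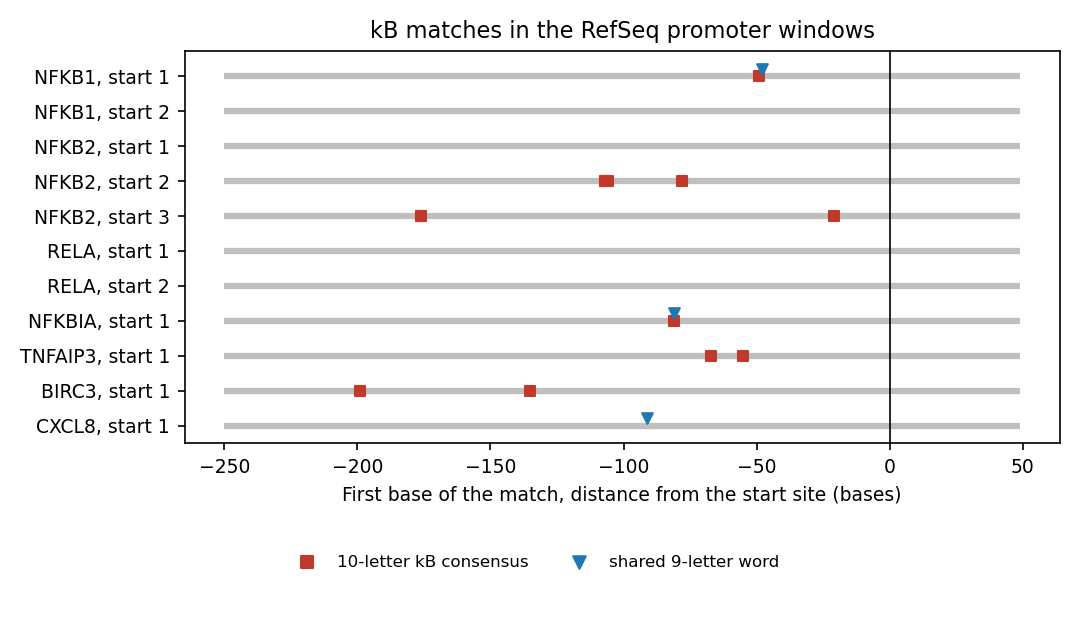
Positions of the κB matches in the 11 RefSeq promoter windows of 7 members, with distance from the start site in bases on the x axis, grey bars for the windows, red squares for the first base of a 10-letter consensus match and blue triangles for the 9-letter word. Every match lies before the start site, and the consensus matches in NFKB1, NFKBIA and TNFAIP3 begin between 49 and 81 bases before it.

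The authors deposited RPKM values only, and steps in the values of single-transcript genes gave an estimated depth of 5100000 reads for empty vector and 4790000 after AIL, and of 5510000 for AR1-651 and 5680000 after AIL. Of the genes used, between 59% and 61.1% lay within 0.15 of a whole read, against 30% that this tolerance gives by itself. The estimate gave read numbers for the members and from them 95% counting intervals (exact Poisson for a level, exact Clopper-Pearson for a ratio of RPKM). These cover counting error only. Conditions had no replicates, so no p-value is given, and a difference between 2 libraries was not tested as a difference between conditions. All 9 LNCaP and luminal prostate markers found in the files were at 1 RPKM or more in each library. Of 8 immune, endothelial and stromal markers, 3 reached 1 RPKM, and the leukocyte marker PTPRC lay between 0.36 and 0.94 RPKM. The macrophage marker CD68 was between 8.31 and 12.2 RPKM. The smooth muscle actin ACTA2 was at 3.92 RPKM with empty vector and 8.49 after AIL, and at 1.51 and 5.08 RPKM in AR1-651 cells. Its change with AIL was 0.95 and 1.28, in the same direction as most of the 10 genes. Of the 3 markers that reached 1 RPKM, ACTA2 was the 1 with a change above 0 in either background. The median change of these 3 was −0.10 with empty vector and −0.15 in AR1-651 cells, and the lowest −0.80 and −0.50. The 8 markers summed to 20.8 and 17.4 RPKM in the libraries without AIL and to 21.4 and 16.4 RPKM in those with it. The part of other cell types in the results was not tested. KLK3, an androgen-regulated kallikrein, was 286.6 RPKM with empty vector and 1442 in the library labelled AR1-651. Every direction given for AR1-651 below is that of the library so labelled.

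AIL went with higher mRNA of nearly the whole group. A change is the difference of log2(RPKM + 1), which understates the change of low genes, and a gene was counted when it was at least 2-fold different on that scale. With empty vector, 8 of the 10 genes were at least 2-fold higher with AIL and 0 were at least 2-fold lower, where 9.53% of the 14626 genes with 1 RPKM in at least 1 library were higher and 9.03% lower. In AR1-651 cells 7 were higher and 0 lower, against 14.9% and 5.74% of all genes. TNFAIP3, counted in both, reached 1 RPKM in libraries with AIL alone. With no filter the member counts were the same, against 7.04% higher and 6.67% lower of all genes with empty vector. In AR1-651 cells the unfiltered shares were 11% and 4.24%. In both backgrounds 6 genes were higher (NFKB1, RELB, NFKBIE, TNFAIP3, BIRC3 and CXCL8), as were 830 genes in all, or 5.67%. The summed RPKM of the 10 genes was 97.7 with empty vector and 247.9 after AIL, and 89.5 with AR1-651 and 238.1 after AIL. The exception was IER3. At a threshold of 1.5-fold, 9 members were higher with AIL and 0 lower in each background, where 20.9% of all genes were higher and 22.1% lower with empty vector, and 28.6% and 14.7% in AR1-651 cells. A higher level in bulk RNA cannot be told apart from a larger share of cells that express the gene.

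**Figure D2:**
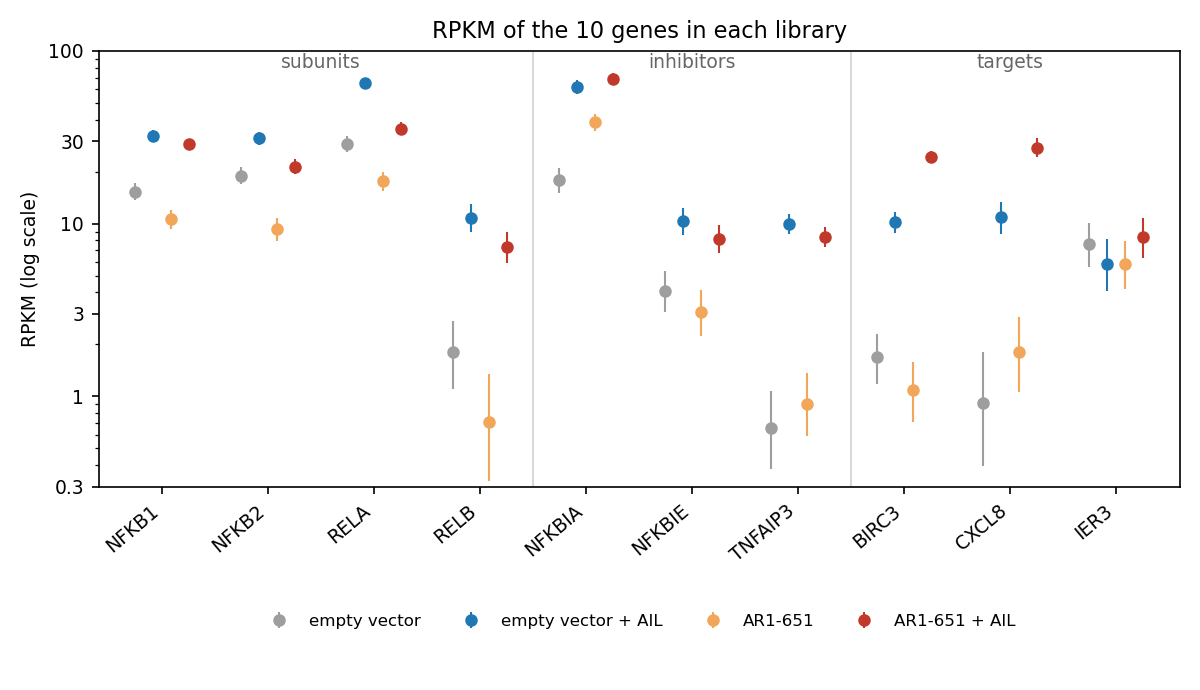
RPKM (log axis) of the 10 genes in the 4 libraries, ordered by role, where each point is 1 library and each bar its 95% counting interval. Both libraries with AIL lie above both without it for every gene but IER3, although RELA with AR1-651 + AIL (35.3) is only a little above empty vector (28.9).

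Among the subunits, NFKB1 encodes p105, which is processed to p50. Its RPKM was 15.3 with empty vector and 32.2 after AIL, and 10.6 with AR1-651 and 28.7 after AIL. It was thus 2.11-fold higher with AIL with empty vector (95% counting interval 1.83 to 2.43) and 2.71-fold in AR1-651 cells (2.32 to 3.17). Both libraries with AIL were above both without it, and the libraries given AIL differed from each other far less than from their own controls.

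RELA encodes p65, the main activating partner of p50. It was the most abundant subunit per length in every library, at 28.9 RPKM with empty vector and 64.8 after AIL, and 17.6 with AR1-651 and 35.3 after AIL. The ratio with AIL was 2.24 (1.98 to 2.54) with empty vector and 2.0 (1.72 to 2.34) in AR1-651 cells, where the change on the log2(RPKM + 1) scale was 0.96, just inside the 2-fold line. RELA with AR1-651 + AIL exceeded the empty vector level by little, and its level with AR1-651 without AIL was below that of empty vector.

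NFKB2 encodes p100, the precursor of p52 and an inhibitor of RELB. Its RPKM was 18.9, 31.1, 9.27 and 21.4 in the order used above. With empty vector the ratio was 1.64 (1.42 to 1.90), the smallest of the 4 subunits, and its change of 0.69 did not reach 2-fold. In AR1-651 cells the ratio was 2.30 (1.91 to 2.79), with a change of 1.12, which was 0.92 after median-ratio scaling of the libraries.

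RELB, the partner of p52 in the alternative pathway, was scarce without AIL. It was at 1.80 RPKM with empty vector (an estimated 21 reads) and 0.71 with AR1-651 (9 reads), and at 10.8 and 7.31 RPKM with AIL (119 and 95 reads). With empty vector, 14.3% of the tested genes lay below it, and 53.8% after AIL. Its ratios of 6.01 (3.77 to 10.1) and 10.3 (5.17 to 23.1) were the largest among the subunits. RELB made up 2.77% of the summed subunit RPKM with empty vector and 1.86% with AR1-651, and 7.79% and 7.89% with AIL. The share of RELA moved less, between 38.1% and 46.6%.

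The inhibitors were higher with AIL as well. NFKBIA encodes IκBα, the classical feedback inhibitor that retains RELA dimers. Its RPKM was 17.8 with empty vector and 61.7 after AIL, and 38.6 with AR1-651 and 68.6 after AIL. AIL thus went with a ratio of 3.47 (2.87 to 4.23) with empty vector and of 1.78 (1.55 to 2.04) in AR1-651 cells, where the change of 0.82 did not reach 2-fold. The counting intervals of the ratios do not overlap. The 2 levels with AIL were close to each other, and the backgrounds differed mostly in the level without AIL, which was higher with AR1-651.

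NFKBIE encodes IκBε, another inhibitor that binds p65 and c-Rel dimers. It was at 4.10, 10.3, 3.07 and 8.18 RPKM in the order used above. Its ratios of 2.52 (1.82 to 3.54) and 2.66 (1.86 to 3.83) were close, and its changes of 1.15 and 1.17 differed by 0.02 between the backgrounds.

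TNFAIP3 encodes A20, a ubiquitin-editing enzyme that ends signalling upstream of the IκB kinases. It was barely present without AIL, at 0.66 RPKM (16 reads) with empty vector and 0.91 (24 reads) with AR1-651, and was at 9.98 (226 reads) and 8.36 (225 reads) with AIL. The ratio of 15.1 with empty vector (9.06 to 26.8) was the largest of the 10 genes in that background, and the ratio in AR1-651 cells was 9.19 (5.96 to 14.5). On the log2(RPKM + 1) scale, 99.5% and 99.0% of the tested genes had a smaller change. TNFAIP3 is among the tested genes through the libraries with AIL alone, so this rank describes it and is no support.

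Set against the subunits, the IκB mRNAs differed by background. NFKBIA and NFKBIE summed to 21.9 RPKM with empty vector and 72.0 after AIL, and 41.6 with AR1-651 and 76.8 after AIL. The 4 subunits summed to 64.9, 138.9, 38.2 and 92.7 RPKM. The inhibitor sum was therefore 0.337 of the subunit sum with empty vector and 0.518 with AIL, and 1.09 in AR1-651 cells and 0.828 with AIL. The ratio of NFKBIA to RELA alone was 0.616, 0.952, 2.19 and 1.94 in the same order. The library labelled AR1-651 had the highest of these ratios. They compare mRNA, not protein.

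Of the 3 further targets, 2 had the largest changes of the group in AR1-651 cells. BIRC3 encodes cIAP2, a ubiquitin ligase of the TNF receptor complex that opposes cell death. Its RPKM was 1.68 (37 reads) with empty vector, 10.2 (211 reads) with empty vector + AIL, 1.09 (26 reads) with AR1-651 and 24.4 (602 reads) with AR1-651 + AIL. The ratio with AIL was 6.05 (4.27 to 8.86) with empty vector and 22.4 (15.2 to 34.7) in AR1-651 cells, and these counting intervals do not overlap. CXCL8 encodes interleukin-8, a neutrophil chemokine. It was at 0.92 RPKM (8 reads) with empty vector, 10.9 (89 reads) with empty vector + AIL, 1.80 (17 reads) with AR1-651 and 27.5 (267 reads) with AR1-651 + AIL. Its ratios were 11.9 (5.76 to 28.3) and 15.3 (9.34 to 26.5), with intervals that overlap widely. For both genes the library AR1-651 + AIL was the highest of the 4, and in AR1-651 cells 99.9% of the tested genes had a smaller change.

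IER3 encodes an early response protein linked to cell survival. It was at 7.62, 5.86, 5.83 and 8.34 RPKM in the order used above, from 48, 35, 40 and 59 estimated reads. With empty vector the ratio with AIL was 0.769 (0.487 to 1.23) and in AR1-651 cells 1.43 (0.942 to 2.19). Both intervals include 1, so no difference was detectable at this depth, and its direction was not the same in the 2 backgrounds. Of the exon bases of IER3 in GENCODE release 29, 26.5% are shared with IER3-AS1 on the opposite strand. The labels name a stranded kit, but the strand setting of the counting is not given in the sources used here, so reads of both genes cannot be told apart.

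**Figure D3:**
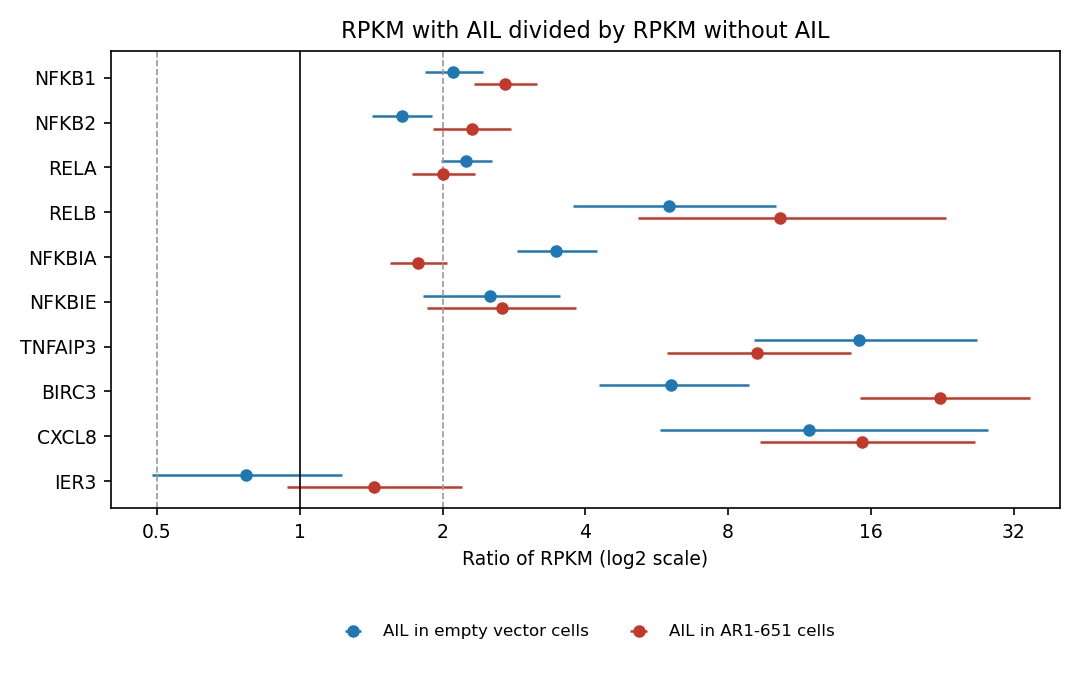
Ratio of RPKM with AIL to RPKM without AIL (log2 axis) for each gene with empty vector (blue) and in AR1-651 cells (red), with 95% counting intervals as bars, a solid line at 1 and dashed lines at 2-fold in each direction. The intervals of 9 genes lie above 1 in each background and those of IER3 include 1.

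The question of whether AIL changed these genes differently in AR1-651 cells could be described but not tested. The change with AIL in AR1-651 cells minus that with empty vector, on the log2(RPKM + 1) scale, was 1.55 for BIRC3, 0.78 for IER3, 0.72 for CXCL8, 0.44 for NFKB2, 0.33 for NFKB1, 0.20 for RELB and 0.02 for NFKBIE. It was below 0 for RELA (−0.18), TNFAIP3 (−0.43) and NFKBIA (−0.92). The median of the 10 genes was 0.27. Over all tested genes the median change with AIL was −0.02 with empty vector and 0.13 in AR1-651 cells, so that the background itself moved by part of this amount. CXCL8 and BIRC3 had the lowest GC content of the group, 33.4% and 38.8%. After removal of the trend of all genes with transcript length and GC content, the difference was 0.75 for BIRC3 and 0.00 for CXCL8.

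The subunits were lower in the library labelled AR1-651 than with empty vector, as were most genes. Without AIL, NFKBIA was the 1 member at least 2-fold higher and 0 were lower, where 4.01% of all tested genes were higher and 11.6% lower. With median-ratio scaling these shares were 7.29% and 5.59%, and the median change of all genes moved from −0.30 to −0.09. All 4 subunits were below their empty vector level, with counting intervals below 1, where 67.0% of all tested genes had a change below 0. The ratio was 0.692 for NFKB1 (0.581 to 0.826), 0.489 for NFKB2 (0.401 to 0.594), 0.611 for RELA (0.518 to 0.717) and 0.394 for RELB (0.160 to 0.903). Their changes of −0.49, −0.96, −0.68 and −0.71 lay within 2-fold on the log2(RPKM + 1) scale, and 37.8%, 13.1%, 26.8% and 24.9% of the tested genes had a lower value of the change. They stayed below 0 with median-ratio scaling (−0.24, −0.71, −0.43 and −0.58) and once the trend with length and GC was taken out (−0.09, −0.43, −0.32 and −0.29).

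NFKBIA went the other way, with a ratio of 2.17 (1.78 to 2.67) and a change of 1.07, larger than in 96.7% of the tested genes. Its change was 1.33 with median-ratio scaling and 1.02 after removal of the trend. The intervals of the other 5 genes included 1. Among them, TNFAIP3 had a ratio of 1.38 (0.708 to 2.80), CXCL8 of 1.96 (0.804 to 5.27) and BIRC3 of 0.649 (0.378 to 1.10), each from few reads.

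With AIL present in both, BIRC3 and CXCL8 were the 2 members at least 2-fold higher with AR1-651 and 0 were lower, against 1.46% and 3.53% of all tested genes. The ratio was 2.40 for BIRC3 (2.05 to 2.83) and 2.52 for CXCL8 (1.98 to 3.25), with changes of 1.19 and 1.26. Once the trend with length and GC was taken out these were 0.89 and 0.59, so that neither reached 2-fold. RELA was lower, at a ratio of 0.545 (0.487 to 0.609), as were NFKB2 at 0.687 (0.598 to 0.787) and RELB at 0.676 (0.509 to 0.889). NFKB1 was near 1, at 0.891 (0.796 to 0.998). After removal of that trend the change was 0.08 for NFKB1, 0.00 for NFKB2 and 0.02 for RELB, while that of RELA was −0.45. At a threshold of 1.5-fold, 1 member was higher and 3 lower with AR1-651 without AIL, against 10.7% and 32.3% of all genes, and 2 were higher and 1 lower with AIL, against 7.73% and 15.5%. NFKBIA, at 1.11 (0.984 to 1.26), was not detectably different between the 2 libraries.

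**Figure D4:**
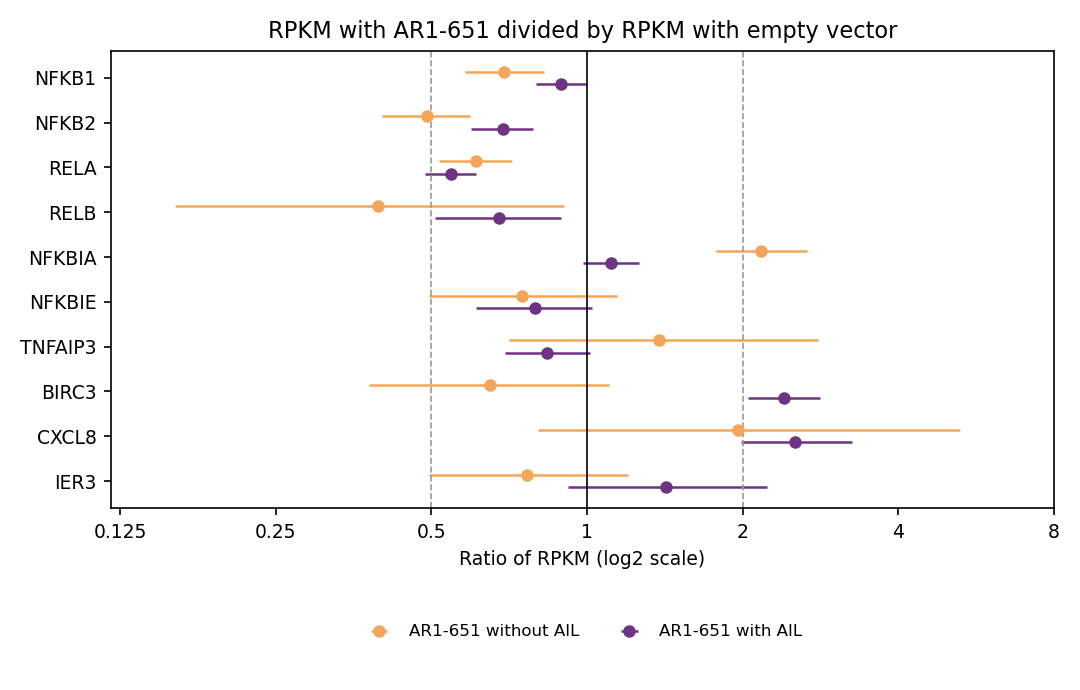
Ratio of RPKM with AR1-651 to RPKM with empty vector (log2 axis) for each gene without AIL (orange) and with AIL (purple), with 95% counting intervals as bars, a solid line at 1 and dashed lines at 2-fold in each direction. The 4 subunits lie below 1 in both settings, NFKBIA lies above 2 without AIL, and BIRC3 and CXCL8 lie above 2 with AIL.

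The rest of the pathway moved less evenly. Lists of ligands, receptors, adaptors and kinases, further subunits and IκB proteins, ubiquitin editors and other target genes held 94 genes, of which 87 were in the files and 68 reached 1 RPKM in at least 1 library. Since 4 of the 68 reached that level in libraries with AIL alone, counts are given over all genes in the files, with no filter. With AIL, 12 of the 87 were at least 2-fold higher and 5 lower with empty vector, where 7.04% of all 19801 genes were higher and 6.67% lower. In AR1-651 cells 17 were higher and 5 lower, against 11% and 4.24%. The other target genes in the files numbered 26, with 7 higher and 1 lower with empty vector and 7 higher and 0 lower in AR1-651 cells. Their median change was 0.23 with empty vector and 0.26 in AR1-651 cells, against 0.00 and 0.06 over all genes. Genes near 0 RPKM in every library have a change near 0 on this scale. Over the 18 of these target genes that reached 1 RPKM, the medians were 0.84 and 0.66, against −0.02 and 0.13 over all tested genes. Of these 18, 3 reached that level in libraries with AIL alone.

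CCL20, a chemokine for lymphocytes and dendritic cells, had the largest changes in the list of other target genes on the log2(RPKM + 1) scale. It was at 4.27 RPKM with empty vector and 51.8 after AIL, and 6.76 with AR1-651 and 87.6 after AIL. GADD45B, a stress protein that restrains JNK signalling, was at 10.4, 35.9, 12.7 and 46.4 RPKM, and the early response gene IER2 at 49.1, 124.3, 24.9 and 71.7. SDC4, a cell surface proteoglycan, was at 40.2, 74.1, 21.2 and 48.2 RPKM. The chemokine CCL5 was the target gene at least 2-fold lower with empty vector, at 35.1 RPKM without and 15.95 with AIL, and was at 20.7 and 13.2 RPKM in AR1-651 cells. These genes therefore did not all move with CXCL8. A further set was named after its values were seen. The chemokine CXCL3 was listed at 0 in both libraries without AIL and at 2.35 and 2.28 RPKM with it, CCL2 was at 0.27, 5.07, 0.25 and 7.85 RPKM, and the cytokine LIF at 2.25, 12.7, 0.71 and 7.89. BCL2L1 and SOD2, also of this list, were lower with AIL, at 43.1, 32.4, 49.4 and 27.25 RPKM and at 46.2, 43.9, 65.6 and 40.4 RPKM. Of the 18 target genes that reached 1 RPKM, 12 had a change above 0 with empty vector and 14 in AR1-651 cells.

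Upstream of IκB, the receptors were split. TNFRSF12A, the receptor for TWEAK, was at 26.2 RPKM with empty vector and 309.8 after AIL, and 39.5 with AR1-651 and 266.5 after AIL. The interleukin-1 receptor IL1R1 was lower with AIL, at 37.9, 11.3, 36.4 and 10.7 RPKM in that order. The TNF receptor TNFRSF1A was lower too, at 29.3, 11.8, 21.5 and 8.75 RPKM. Of 8 receptors in the files, these were the 1 at least 2-fold higher and the 2 lower in both backgrounds. Over all 19801 genes, 7.04% were higher and 6.67% lower with empty vector, and 11% and 4.24% in AR1-651 cells. Of the ligands only 2 of 9 in the files reached 1 RPKM in any library, and TNF was listed at 0 in 3 libraries and at 0.10 RPKM (1 read) with AR1-651 + AIL. At this depth an upper counting limit for TNF was 0.459 RPKM with empty vector + AIL.

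Among 23 adaptors and kinases, MAP3K14 (NIK, the kinase that starts the alternative pathway by acting on p100 through IKKα) was the 1 gene at least 2-fold higher with empty vector, at 6.19 RPKM without and 26.2 with AIL. In AR1-651 cells it was at 2.47 and 10.1 RPKM. The list had 4 genes higher in AR1-651 cells, where 11% of all genes were higher, against 7.04% with empty vector. Among the 4 were CHUK (IKKα, at 3.64, 7.04, 3.14 and 8.89 RPKM) and TAB2, an adaptor of the kinase TAK1 (7.47, 9.21, 3.91 and 9.96). IKBKB, another IκB kinase, was lower with AIL within 2-fold, at 13.3, 7.15, 10.4 and 7.17 RPKM. HSP90AA1, whose protein folds the IκB kinases among many clients, was at 609.9, 236.8, 489.6 and 370.4 RPKM and was at least 2-fold lower with empty vector alone. HSP90AB1 was at 688.3, 427.5, 1068 and 499.6 RPKM and was at least 2-fold lower in AR1-651 cells alone. MYD88, the adaptor of interleukin-1 and Toll-like receptors, was at 13.2, 9.88, 17.0 and 7.42 RPKM, and was likewise 2-fold lower in AR1-651 cells alone.

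Of the 6 further subunits and IκB proteins, NFKBIB (IκBβ) was higher with AIL in both backgrounds, at 15.9, 53.2, 13.0 and 41.6 RPKM. BCL3, a nuclear IκB protein that works with p50 and p52, was at least 2-fold higher with empty vector alone, at 3.49, 8.36, 2.43 and 2.92 RPKM. Adding NFKBIB to NFKBIA and NFKBIE gave sums of 0.582, 0.901, 1.43 and 1.28 of the subunit sum, in the same order as without it. Among 15 ubiquitin editors and brakes, 1 was higher and 1 lower with empty vector, and 3 higher and 1 lower in AR1-651 cells, to be read against the shares of all genes given above. TNIP2, a partner of A20, was at 23.4, 60.8, 31.5 and 59.2 RPKM. The A20 partner RNF11 was lower, at 41.9, 19.3, 37.3 and 18.0 RPKM. BIRC2 (cIAP1), the relative of BIRC3, was at 13.5, 9.88, 5.79 and 15.5 RPKM and so did not share the pattern of BIRC3 with empty vector. ITCH and TAX1BP1, which act with A20, were at 8.79, 13.0, 6.88 and 18.1 RPKM and at 61.4, 59.5, 47.4 and 102.3 RPKM. Between AR1-651 and empty vector, 1 gene of the 87 was higher and 4 lower without AIL, against 2.96% and 8.59% of all genes. With AIL 0 were higher and 2 lower, against 1.08% and 2.61%.

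**Figure D5:**
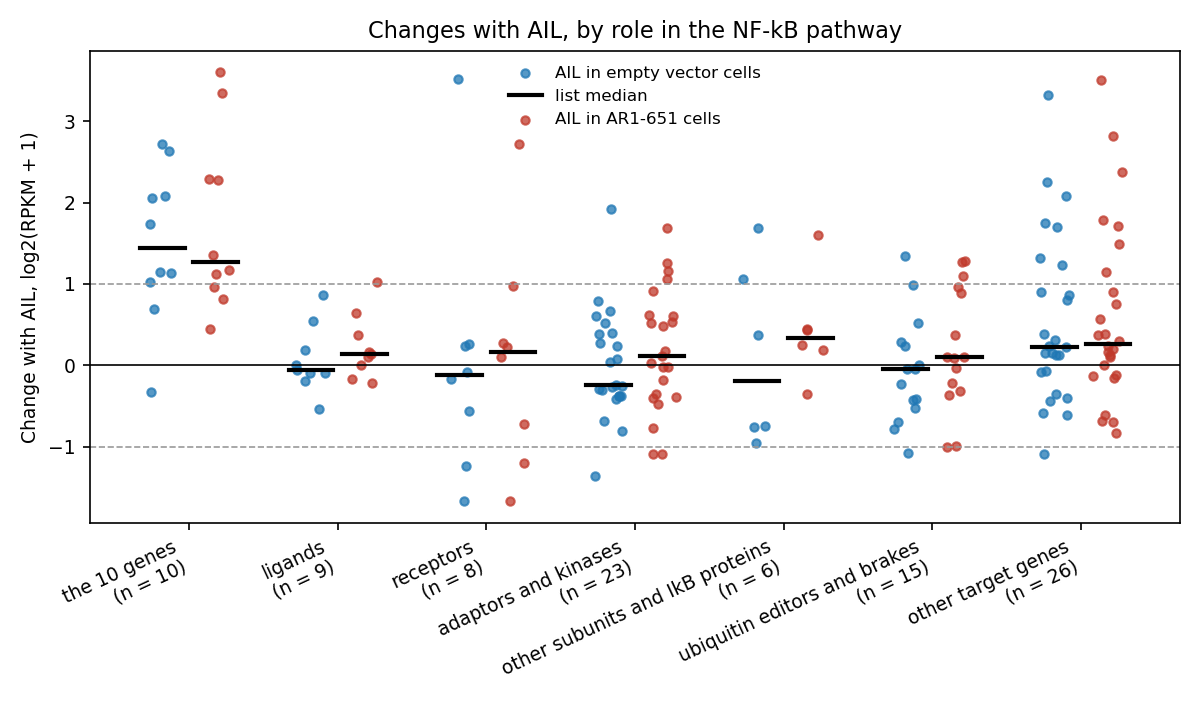
Change with AIL on the log2(RPKM + 1) scale for the 10 genes and 6 wider lists of pathway genes, with empty vector (blue) and in AR1-651 cells (red), where each point is 1 gene, black bars are list medians and dashed lines mark 2-fold. All listed genes in the files are shown. The medians of the 10 genes lie above 1 (1.45 and 1.27), and those of the other target genes at 0.23 and 0.26, with a few genes far above them.

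The profile most like that of a member was sought over the 4 libraries among 10680 genes, as the distance between centred log2(RPKM + 1) values. For CXCL8 the nearest was RGS2, a regulator of G protein signalling (distance 0.341, at 1.15, 12.3, 2.12 and 23.3 RPKM), followed by the splicing kinase CLK1 (0.464) and CCL20 (0.562). For NFKBIA, MRPL9, a protein of the mitochondrial ribosome, was nearest (0.0228, at 48.98, 163.1, 104.3 and 185.0 RPKM), and PSMD7, a proteasome subunit, was also among the 5 nearest (0.138). With 4 libraries many genes share a profile.

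The κB letters shown above were also set against all genes. Leaving out the members, 1843 tested genes had the consensus in a promoter window and 9323 had windows without it. At least 2-fold higher with AIL were 8.79% of the former and 9.30% of the latter with empty vector, and 13.7% and 15.9% in AR1-651 cells. The share was no larger among the genes with these letters, and the difference was not tested.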

How the data were processed

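Gene expression was measured by RNA-seq in 4 LNCaP libraries, 1 per condition, with conditions taken from the sample labels. The authors deposited RPKM values rounded to 2 decimals for 19801 genes, each row giving an Entrez identifier and its RefSeq transcripts. The submitters' processing notes name BWA 0.7.10-r789 and hg19. The counting tool and annotation release are not given in the sources used here, and the labels name both a stranded kit with rRNA depletion and oligo(dT) selection. RPKM is relative to all mapped reads, so a library in which few genes take many reads shows lower values elsewhere.

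Changes were differences of log2(RPKM + 1) over genes that reached 1 RPKM in any library, and a change of at least 1 was counted. Reads were estimated from depth, RPKM and GENCODE 29 transcript length. The alternatives tried were no filter, a filter at RPKM 5, median-ratio scaling, a pseudocount of 0.1, a threshold of 1.5-fold, and removal of the length and GC trend (polynomial of degree 3). The members and lists were chosen with earlier results of these data known. Named genes were the 10 members, at most 6 per list past 2-fold with AIL at 1 RPKM or more in all 4 libraries, KLK3 and genes among the 5 nearest to NFKBIA and CXCL8. Beside this rule stand genes listed at 0 (TNF, CXCL3) and cell type markers (PTPRC, CD68, ACTA2). So do genes chosen after their values were seen (CCL2, LIF, BCL2L1, SOD2, IKBKB). Some genes are not reported here. Calculations used Python 3.11.15, NumPy 2.4.6, pandas 2.3.3 and SciPy 1.17.1 and were tested on simulated data.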

Additional observations from a re-analysis of the deposited data

Results flagged for a closer look

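Several genes had changes of opposite sign in the 2 settings of the same comparison. With 1 library per setting, every sample of a setting is that library, and the difference was not tested in any case. The values are the change with AIL in AR1-651 cells minus that with empty vector on the log2(RPKM + 1) scale, which equals the change with AR1-651 in the presence of AIL minus that in its absence. IER3 (0.78), BIRC2 (1.70) and TAX1BP1 (1.14) were lower with AIL with empty vector and higher in AR1-651 cells, and lower with AR1-651 without AIL and higher with it.

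In the comparison of AR1-651 with empty vector alone, BIRC3 (1.55), HSP90AA1 (0.96), TAB2 (0.89), ITCH (0.76) and CHUK (0.46) were lower without AIL and higher with AIL. Over all tested genes the median change with AR1-651 was −0.30 without AIL and −0.03 with AIL, and 67.0% and 51.9% were below 0. Without AIL, 46.2%, 48.9%, 20.8%, 49.2% and 58.1% of the tested genes had a lower value of the change than these genes, in the order named. A value below 0 was thus shared with most genes. TNFRSF12A (−0.79), MYD88 (−0.71), TNIP2 (−0.45) and TNFAIP3 (−0.43) were higher without AIL and lower with it. For TNFAIP3 and IER3 the counting intervals of both ratios included 1. A single ratio had such an interval for BIRC3 and CHUK (without AIL), for TAB2, TNIP2 and MYD88 (with AIL) and for TAX1BP1 (AIL with empty vector).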

How the results depend on the processing

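No paired analysis was possible because the labels give no replicate numbers and each condition had 1 library, so no replicate could be left out either. A fit that takes the backgrounds as pairs would have the difference between them as its only residual and was not run. The counts of members at least 2-fold higher with AIL lay between 8 and 9 with empty vector and between 6 and 9 in AR1-651 cells under all 6 alternatives, with 0 lower, and no change counted as at least 2-fold turned its direction. Over all genes the alternatives gave between 7.04% and 20.9% higher with AIL with empty vector, and between 8.27% and 28.6% in AR1-651 cells. The comparisons of AR1-651 with empty vector were less stable. With a pseudocount of 0.1, 2 members (NFKB2 and RELB) were lower without AIL, where 20.8% of all genes were lower. At 1.5-fold, 3 were lower without AIL and 1 with AIL, against 32.3% and 15.5% of all genes. Once the trend with length and GC was taken out, 0 were higher with AIL, against 1.19% of all genes.

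In the wider lists the counts are over the 68 genes that reached 1 RPKM, unless the setting changes which genes are kept. With a pseudocount of 0.1, 8 genes were lower with AIL with empty vector, against 14.6% of all genes. With AR1-651 without AIL, 2 were higher and 7 lower, against 5.26% and 20.8%. With AR1-651 in the presence of AIL, 2 were higher, against 3.48%. At 1.5-fold, AIL with empty vector gave 20 higher and 13 lower, against 20.9% and 22.1%, and AIL in AR1-651 cells 12 lower, against 14.7%. AR1-651 without AIL gave 4 higher and 18 lower, against 10.7% and 32.3%. AR1-651 with AIL gave 6 higher and 12 lower, against 7.73% and 15.5%. Median-ratio scaling left 0 lower with AR1-651 without AIL, against 5.59% of all genes. The filter at RPKM 5 left 0 higher in that comparison, against 4.54%. After removal of the trend, 11 were higher with AIL in AR1-651 cells, against 8.27%. With AR1-651, 2 were higher and 0 lower without AIL, against 4.71% and 3.76%, and 0 were lower with AIL, against 1.34%. Looser thresholds and smaller pseudocounts count more genes by construction. The cause of the other shifts was not tested. Depth limits the genes with few reads, chiefly RELB, TNFAIP3, BIRC3 and CXCL8 without AIL.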
